A study of Mus musculus with 6 samples.

Results

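The genes described here encode proteins that developing neutrophils make for their granules and cytosol: Mpo, Elane, Prtn3 and Ctsg of the azurophil granules, Ngp, Camp and Ltf of the specific granules, and S100a8, S100a9 and Retnlg, which are cytosolic or appear late. They were chosen by gene symbol, with earlier results of these arrays known, so every difference between the groups is a description and no test is attached to it. All 10 genes had a probe, of 19057 genes with a named probe on the array, and together they had 14 probes. A filter on dim probes left 13 of the 14, and all 10 genes kept at least 1 probe. RNA came from homogenised calvaria, the roof of the skull, of FVB/N mice at postnatal day 3 and was hybridised to Illumina bead arrays. Each of the 6 arrays is labelled a biological replicate: 3 are wild type (WT) and 3 carry miR34c overexpression, which the series calls a gain of function (TG). Neither the promoter driving miR34c, nor the sex of the pups, nor whether an array holds 1 pup or a pool is given in the sources used here, so the spread between arrays may include more than animal differences. A second header inside the deposited intensity table gives the same columns another age and other replicate numbers than the sample labels; the sample labels are used throughout.

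Neutrophils fill their granules in an order fixed by maturation. Promyelocytes make the azurophil (primary) granules with myeloperoxidase and serine proteases, myelocytes make the specific (secondary) granules with lactoferrin and cathelicidin, and later cells accumulate S100A8 and S100A9 in the cytosol. Mature neutrophils keep the proteins but have lost most azurophil messenger RNA, so these transcripts mark precursor cells. Where such cells lay in the homogenised calvaria was not measured. The factors PU.1 and C/EBP are known to drive many granule genes.

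Promoter sequences of all 10 genes were found by symbol in a RefSeq table (build GRCm38.p6) and are shown because the 4 azurophil genes shared a short letter pattern there, and some specific and late genes another. In the 250 bases before the gene start, GAGGAA, the core letters bound by PU.1, was present on either strand in 6 of 10 genes, namely the 4 azurophil genes, Ltf and S100a8, against 23.3% of all 32851 promoters. The C/EBP-like letters TTGCNNAA were present in 4 of 10, namely Ngp, Ltf, S100a9 and Retnlg, and in 0 of the 4 azurophil genes, against 9.56% of promoters. The wider C/EBP pattern TTNNGNAA, which overlaps the narrower one on the opposite strand, was in 5 of 10 against 36.8%. Other letters searched were TATAAA (2 of 10 against 12.4%), the Myb letters AACTG (6 of 10 against 39.1%) and AACNG, which contains them (10 of 10 against 74.2%), and AAATC for GFI1 (3 of 10 against 32.7%). A match is a description of these letters and not a bound site. For the 4 azurophil genes the stretch around the GAGGAA nearest the gene start follows, and for the other 4 genes that around the TTGCNNAA nearest it, each 5′ to 3′ on the gene's strand with the match in capitals. In Ngp, Ltf and Retnlg the match lies on the opposite strand, so its reverse complement is printed.
Mpo, chr11:87793534-87793592 (+): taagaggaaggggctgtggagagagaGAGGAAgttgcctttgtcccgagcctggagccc
Elane, chr10:79886200-79886259 (+): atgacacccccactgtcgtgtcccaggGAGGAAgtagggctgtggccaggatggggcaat
Prtn3, chr10:79879545-79879604 (+): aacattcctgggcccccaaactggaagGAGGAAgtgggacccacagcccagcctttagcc
Ctsg, chr14:56102758-56102817 (-): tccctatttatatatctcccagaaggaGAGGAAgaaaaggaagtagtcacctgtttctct
Ngp, chr9:110419770-110419807 (+): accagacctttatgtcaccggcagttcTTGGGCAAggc
Ltf, chr9:111019190-111019251 (+): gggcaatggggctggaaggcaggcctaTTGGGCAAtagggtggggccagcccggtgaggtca
S100a9, chr3:90695923-90695971 (-): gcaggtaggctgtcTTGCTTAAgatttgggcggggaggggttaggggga
Retnlg, chr16:48872358-48872396 (+): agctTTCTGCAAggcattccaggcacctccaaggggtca
The neighbouring genes Elane and Prtn3, which follow each other on chromosome 10, carried GAGGAA at 85 and 95 bases before their gene starts. S100a8 and S100a9 are also neighbours, on chromosome 3.

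Median intensity per array was 125.1 to 132.6, and the negative control beads, which match no transcript, had medians of 116.4 to 122.2 and 95th percentiles of 129.9 to 135.8. A probe was called detected on an array at a deposited detection p under 0.05; 19680 to 21412 probes were detected per array. In the limma comparison of TG with WT over all 20632 probes that passed the filter, 0 probes had an adjusted p under 0.05 (0.0%), the smallest adjusted p was 0.9998, and 711 probes had an unadjusted p under 0.05. None of the 13 granule probes was therefore called. Below, intensities are the deposited values on a linear scale without background subtraction; log2 values are background-corrected and quantile-normalised, and differences are TG minus WT on that log2 scale with the standard error (SE) of the fit.

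Every granule gene had its lowest value on TG replicate 1. All 10 genes had a lower mean in TG than in WT, where 50.5% of all 11204 genes tested did, and so did all 13 tested probes, where 49.9% of probes did. The genes' differences ran from -0.999 (Mpo) to -0.25 (Ctsg), with a median of -0.54 against -0.0013 over all genes. On the normalised scale and the brightest probe, TG and WT arrays did not overlap for 2 of the 10, Mpo and Retnlg, both lower in TG. Of all genes 3.47%, and of all probes 3.93%, were lower in TG without overlap. The other Mpo probes overlapped on that scale. A mean at least 1.5-fold lower in TG was measured for 3 of the 10, Mpo, Ngp and Retnlg, against 0.339% of all genes. This count depended on the processing. In the authors' deposited log2 values the differences of Mpo, Ngp and Retnlg were smaller, at -0.62, -0.25 and -0.54. In whole tissue, fewer neutrophil-lineage cells and less of each messenger RNA per cell cannot be told apart. As given below, TG replicates 2 and 3 also differed from every WT array in sex-linked transcripts, so the group differences are not separated from sex.

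**Figure D1:**
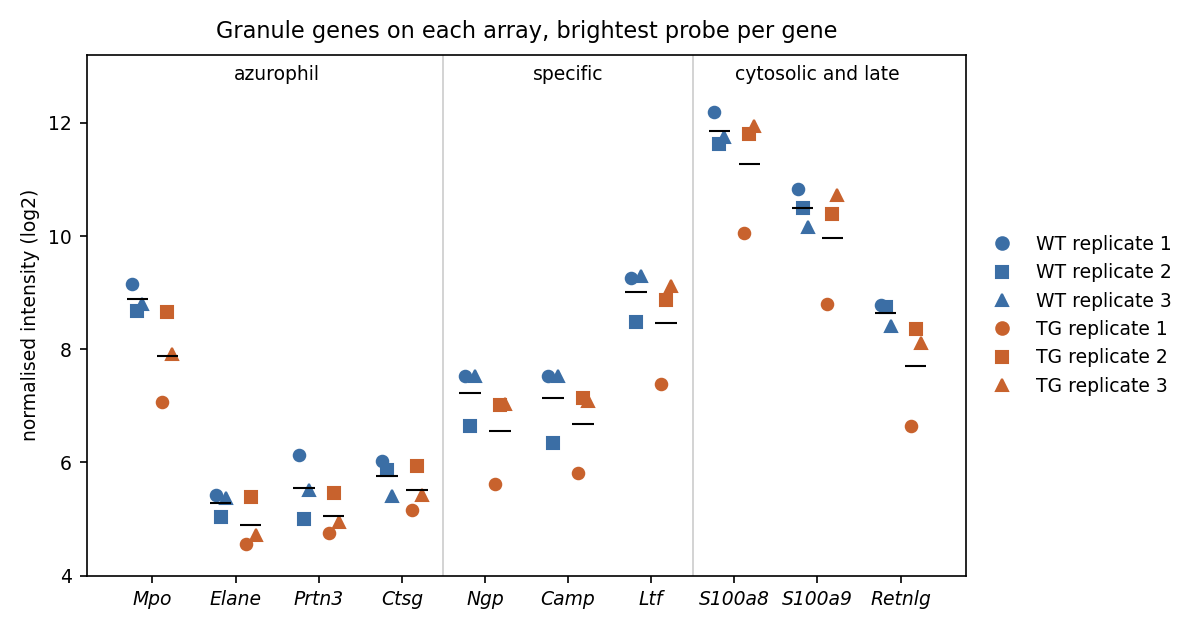
Normalised log2 intensity (vertical axis) of the brightest probe of each of the 10 granule genes (horizontal axis, by granule stage) on 3 WT arrays (blue) and 3 TG arrays (orange); symbols mark the replicate number and black lines the group means (n = 3). TG replicate 1, the orange circle, is the lowest point for each of the 10 genes.

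Among the azurophil genes, Mpo encodes myeloperoxidase, the haem enzyme that makes hypochlorous acid. On its brightest probe the deposited intensity was 678.3, 564.9 and 496.8 on WT replicates 1 to 3 and 236.8, 480.1 and 367.9 on TG replicates 1 to 3. The lowest WT array stood above the highest TG array, by a small margin, and TG replicates 1 and 3 lay further down. On the normalised log2 scale WT had 8.88 ± 0.25 and TG 7.88 ± 0.79 (SD, n = 3), which differ by -0.999 ± 0.35 (SE), or 2.00-fold. The second Mpo probe read 352.4, 304.7 and 287.8 in WT and 184.8, 279.4 and 219.9 in TG, a difference of -0.84 ± 0.29 (SE). It repeated the order of the brightest probe on the TG arrays, lowest on replicate 1 and highest on replicate 2. The other 2 Mpo probes were dim, at 135.8 to 162.5 in WT, and were not detected on TG replicate 1, where they read 121.7 and 121.4. Their differences were -0.46 ± 0.26 and -0.15 ± 0.23 (SE), so the size depended on the probe.

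The 3 serine protease genes of the azurophil granule lay close to background. Elane, encoding neutrophil elastase, read 148.9, 140.5 and 139.4 in WT and 120.8, 143.2 and 129.0 in TG. It was detected on the 3 WT arrays but only on TG replicate 2 within its group, at detection p of 0.456 and 0.13 on TG replicates 1 and 3. Its difference was -0.39 ± 0.23 (SE). Prtn3, encoding proteinase 3, read 176.0, 139.5 and 142.8 in WT and 128.0, 145.1 and 136.9 in TG, a difference of -0.50 ± 0.29 (SE). WT replicate 1 was the high array for Prtn3, and the other WT arrays overlapped the TG arrays. Ctsg, encoding cathepsin G, read 170.9, 171.6 and 140.0 in WT and 139.3, 161.5 and 152.4 in TG, with a difference of -0.25 ± 0.23 (SE). WT replicate 3 was nearly as low for Ctsg as TG replicate 1, so the groups overlapped. Values this near the negative controls are compressed by background, so their differences cannot be set against those of brighter probes.

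**Figure D2:**
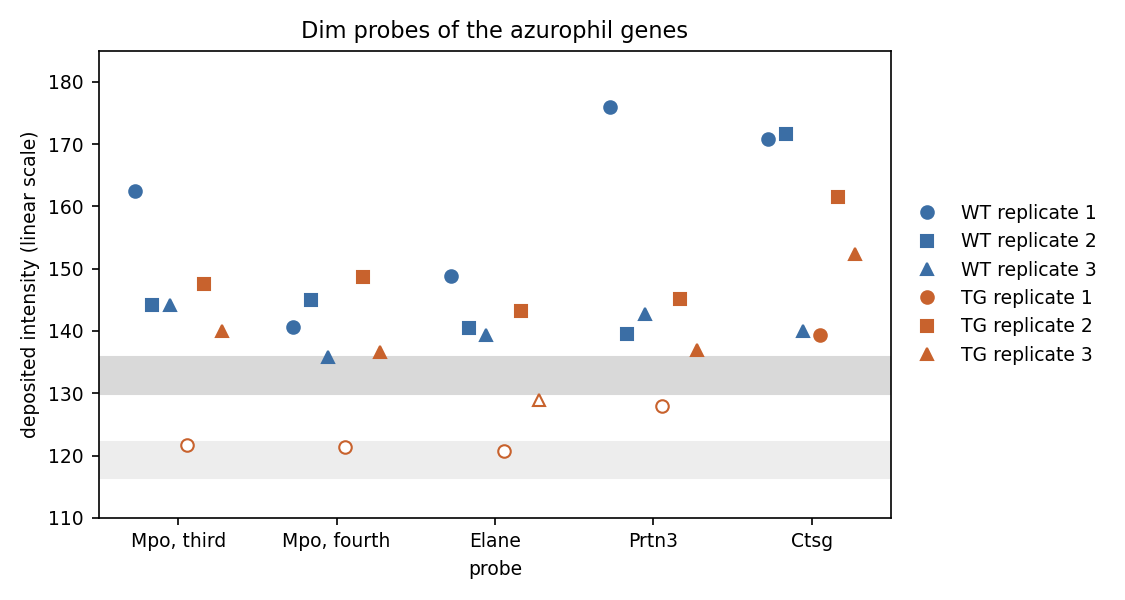
Deposited intensity (vertical axis, linear, starting above 0) of the dim azurophil probes (horizontal axis) on each array; filled symbols were detected at p under 0.05 and open symbols were not, and the darker and lighter grey bands span the 95th percentiles and the medians of the negative controls over the 6 arrays. TG replicate 1 is undetected for both dim Mpo probes, Elane and Prtn3, and reads 139.3 for Ctsg.

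The specific granule genes showed a second array pattern within WT. Ngp, encoding neutrophilic granule protein, read 289.8, 219.4 and 264.7 in WT and 152.5, 225.7 and 246.5 in TG. WT had a log2 value of 7.23 ± 0.51 and TG 6.56 ± 0.81 (SD, n = 3), which differ by -0.67 ± 0.40 (SE). Camp, encoding the cathelicidin antimicrobial peptide, read 289.5, 197.8 and 264.5 in WT and 159.4, 236.8 and 253.0 in TG, a difference of -0.45 ± 0.43 (SE). Both genes were high on WT replicates 1 and 3, lower on WT replicate 2, and lowest on TG replicate 1, so WT replicate 2 lay below TG replicates 2 and 3. Ltf, encoding the iron-binding protein lactoferrin, read 717.2, 509.4 and 659.8 in WT and 271.5, 537.4 and 697.3 in TG. WT had a log2 value of 9.01 ± 0.46 and TG 8.46 ± 0.93, which differ by -0.55 ± 0.44 (SE), and it ordered the WT arrays as Ngp and Camp did. A second Ltf probe was detected on 1 of the 6 arrays, TG replicate 2, at 132.7, and read 116.7 to 133.8 over all arrays; it was left out by the filter on dim probes and has no difference here.

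The cytosolic and late genes were also lowest on TG replicate 1. S100a8 and S100a9 encode the subunits of calprotectin, a calcium-binding complex that sequesters zinc and manganese from microbes. S100a8 read 4808.5, 3565.4 and 3268.8 in WT and 1197.6, 3402.1 and 4215.2 in TG. TG replicate 1 was 3.24-fold below the WT mean intensity, while TG replicates 2 and 3 lay within the WT range, and the difference of group means was -0.58 ± 0.46 (SE). S100a9 read 1933.6, 1691.1 and 1129.8 in WT and 555.1, 1337.9 and 1873.3 in TG, a difference of -0.53 ± 0.45 (SE). The partners kept the same order on the TG arrays, and WT replicate 1 was the highest array for both. Retnlg, encoding a resistin-like secreted protein that in mice is made by neutrophils, read 545.3, 590.1 and 404.1 in WT and 203.2, 410.8 and 403.2 in TG. The normalised values were 8.65 ± 0.21 in WT and 7.71 ± 0.92 in TG (SD, n = 3), a difference of -0.94 ± 0.40 (SE). The groups did not overlap on the normalised scale, but in deposited intensity WT replicate 3 lay just below TG replicate 2.

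Averaged over the 10 genes, with each gene set to its own mean of the 6 arrays, the log2 level was 0.59, 0.0010 and 0.28 on WT replicates 1 to 3 and -1.10, 0.21 and 0.01 on TG replicates 1 to 3. The level was 0.29 ± 0.30 in WT and -0.29 ± 0.71 in TG (SD, n = 3), so the group difference of -0.59 was smaller than the spread among TG arrays. TG replicate 1 was the lowest array for 10 of 10 genes, where it was the lowest for 15.6% of all genes tested, and for 13 of 13 probes against 14.9%. For 7 of the 10, all but Elane, Prtn3 and Ctsg, it lay at least 0.5 below each other array, against 1.14% of all genes. Relative to the mean of the other 5 arrays, TG replicate 1 was lower by a median of -1.55 over the granule genes, from -1.83 (Retnlg) to -0.56 (Ctsg), and the median over all genes was 0.02. WT replicate 1 was the highest array for 7 of the 10 genes.

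**Figure D3:**
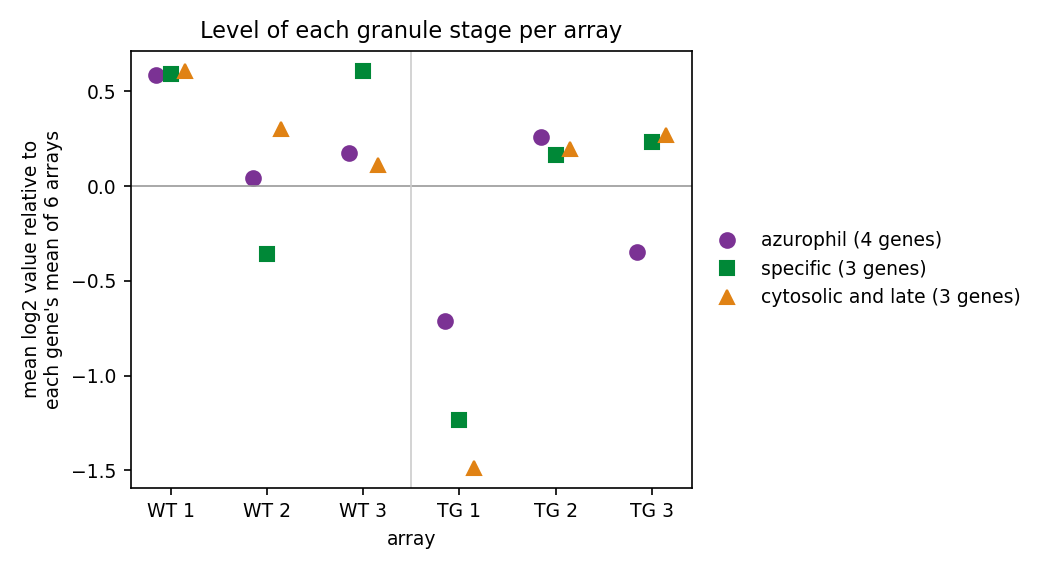
Mean log2 level of the azurophil, specific, and cytosolic and late genes (vertical axis, relative to each gene's mean of 6 arrays) on each array (horizontal axis); 1 symbol is 1 stage on 1 array. All 3 stages are lowest on TG replicate 1, and on TG replicate 3 the azurophil level (-0.35) lies below the specific (0.23) and late (0.27) levels.

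The stages did not move as a single block between arrays. On TG replicate 1 the azurophil, specific, and late levels were -0.71, -1.23 and -1.49. On TG replicate 2 they were 0.26, 0.16 and 0.19, all within the range of the WT arrays. TG replicate 3 had a low azurophil level of -0.35 beside a specific level of 0.23 and a late level of 0.27. WT replicate 2 had a specific level of -0.36 beside an azurophil level of 0.04 and a late level of 0.30. The azurophil level minus the late level was -0.62 on TG replicate 3 with a WT range of -0.26 to 0.06, a comparison chosen after the values were seen. On TG replicate 3 it was between -0.62 and -0.36 under the other scalings and background settings, and -0.73 with the brightest Mpo probe alone standing for the azurophil genes. On TG replicate 1 it was 0.77, and 0.18 with Mpo alone, the other azurophil probes being near or under the detection limit there. The azurophil level minus the specific level was -0.58 on TG replicate 3 and 0.52 on TG replicate 1. For that difference the WT arrays alone ran from -0.43 to 0.40, so the stage balance also varied widely within WT. Group differences were -0.53 for the azurophil, -0.56 for the specific and -0.68 for the late genes, and the stages have no order by size: the azurophil value was -0.999 with Mpo alone, and without TG replicate 1 the values were -0.31, -0.08 and -0.11.

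Without TG replicate 1, 8 of the 10 genes remained lower in TG, where 5772 of 11204 genes tested were, and the median difference was -0.15. Mpo then had -0.59 ± 0.25 and Retnlg -0.41 ± 0.17 (SE). On the normalised scale their brightest probes were lower on each remaining TG array than on any WT array. The share of all genes separated in this way without TG replicate 1 was not counted. With fewer arrays such separation is more common, so it is no result about these genes. The other Mpo probes overlapped between the groups, and their differences without TG replicate 1 were -0.58, -0.22 and 0.08. Prtn3 had -0.35 ± 0.33, Elane -0.22 ± 0.23 and Ngp -0.21 ± 0.28 (SE), each smaller than or near its error. Ctsg at -0.08, Ltf at -0.02 and Camp at -0.02 lay near 0, and S100a8 and S100a9 were at 0.02 and 0.06. In that fit, without TG replicate 1, limma called 2 probes over the whole array, the X-linked Xist at 4.37 ± 0.21 (adjusted p = 0.00281) and the Y-linked Kdm5d at -2.56 ± 0.17 (adjusted p = 0.0139), and neither is a granule gene. Both remaining TG arrays differed from every WT array in these sex-linked transcripts. In this fit a difference by genotype therefore cannot be told apart from a difference by sex, for Mpo and Retnlg as well. The comparison of all 6 arrays does not separate genotype from sex either, as only TG replicate 1 resembled WT in Xist and Kdm5d. In the authors' deposited log2 values of all 6 arrays the 10 genes were also lower in TG, from -0.62 (Mpo) to -0.055 (Ctsg).

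The rest of the neutrophil programme was taken from 4 lists, of which no gene passed the test in either direction. Of 11 other azurophil-related genes 7 were tested, 5 lower and 2 higher in TG, with a median difference of -0.12. The lysozyme genes Lyz1 and Lyz2, close sequence copies between which a probe can cross-hybridise, had -0.31 ± 0.25 and -0.38 ± 0.28 (SE). Both were lowest on TG replicate 1: Lyz1 read 1609.5 there and 2594.3 to 3146.3 elsewhere. Srgn, encoding the granule proteoglycan serglycin, had -0.22 ± 0.22, Cd63, a granule membrane protein also made by many other cells, had 0.11, and the protease activator gene Ctsc was too dim to be tested. Of 23 other specific and gelatinase granule genes 15 were tested, 12 lower and 3 higher, with a median of -0.14. Lcn2, encoding the siderophore-binding lipocalin of specific granules, read 298.7, 385.0 and 278.5 in WT and 157.6, 323.1 and 421.9 in TG, a difference of -0.44 ± 0.56. Its TG arrays held both the lowest and the highest of the 6 values. Olfm4 had -0.38 ± 0.37, and Anxa1, encoding annexin A1, had 0.36 ± 0.17 and was highest on TG replicate 1. Mmp9, the gelatinase gene that osteoclasts also express, had -0.14 ± 0.16 (SE).

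Genes of maturing and mature neutrophils shared the array pattern in part. Of 19 listed, 10 were tested, 6 lower and 4 higher in TG, with a median of -0.06. Stfa1, encoding a stefin, a cytosolic inhibitor of cysteine proteases, read 1704.7, 1330.2 and 1152.6 in WT and 430.8, 1229.4 and 1303.0 in TG, a difference of -0.73 ± 0.46 (SE). Stfa2 had -0.52 ± 0.46, and Fpr2, a formyl peptide receptor gene, had -0.37 ± 0.41. Each of these was lowest on TG replicate 1 with the other TG arrays inside or near the WT range. Csf3r, encoding the G-CSF receptor, had 0.05 and read 139.2 on TG replicate 1 against 137.5 to 147.9 on the others; Cxcr2, Padi4, Il1b and Il1r2 were too dim to be tested. Of 20 regulators of granulocyte formation 13 were tested, 11 lower and 2 higher, with a median of -0.08. Gfi1, a repressor that neutrophil differentiation requires, had -0.20 ± 0.29, and Spi1, encoding PU.1, had -0.20 ± 0.15. Cd34 had -0.16 ± 0.17, and Cxcl12, the stromal chemokine that retains neutrophils in marrow, had -0.13 ± 0.20 (SE). Spi1 read 157.6 on TG replicate 1, within the 152.8 to 163.5 of the other arrays. Cebpa, Cebpe and Myb were too dim to be tested. Without TG replicate 1, 5 of the 15 specific and gelatinase genes and 2 of the 10 mature neutrophil genes were lower in TG, with medians of 0.03 and 0.14. In the same fit 5 of the 7 other azurophil genes were lower, with a median of -0.0082, and 6 of the 13 regulators, with a median of 0.0035.

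Relatives of the granule genes by sequence family were also looked at. TG replicate 1 was the lowest array for 15.6% of all genes tested, so counts of 0 among so few relatives lie near that share. Of 13 other S100 genes 8 were tested, 3 lower and 5 higher, with a median of 0.04 and TG replicate 1 lowest for 0 of the 8. Among them S100b, a glial and cartilage member, had 0.18 ± 0.32, S100a1 had 0.12 ± 0.15, S100a10 had 0.08 ± 0.12 and S100a11 had 0.06 (SE). Of 19 peroxidase, granzyme, chymase, transferrin and resistin relatives only 4 were bright enough to test, 1 lower and 3 higher, with a median of 0.26. TG replicate 1 was lowest for 0 of the 4, which were Meltf (0.34 ± 0.34), Cma1 (0.33 ± 0.44), Mcpt4 (0.19 ± 0.25) and Gzmm (-0.14 ± 0.18). The eosinophil peroxidase gene Epx and the lactoperoxidase gene Lpo, a neighbour of Mpo on chromosome 11, were too dim to be tested.

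**Figure D4:**
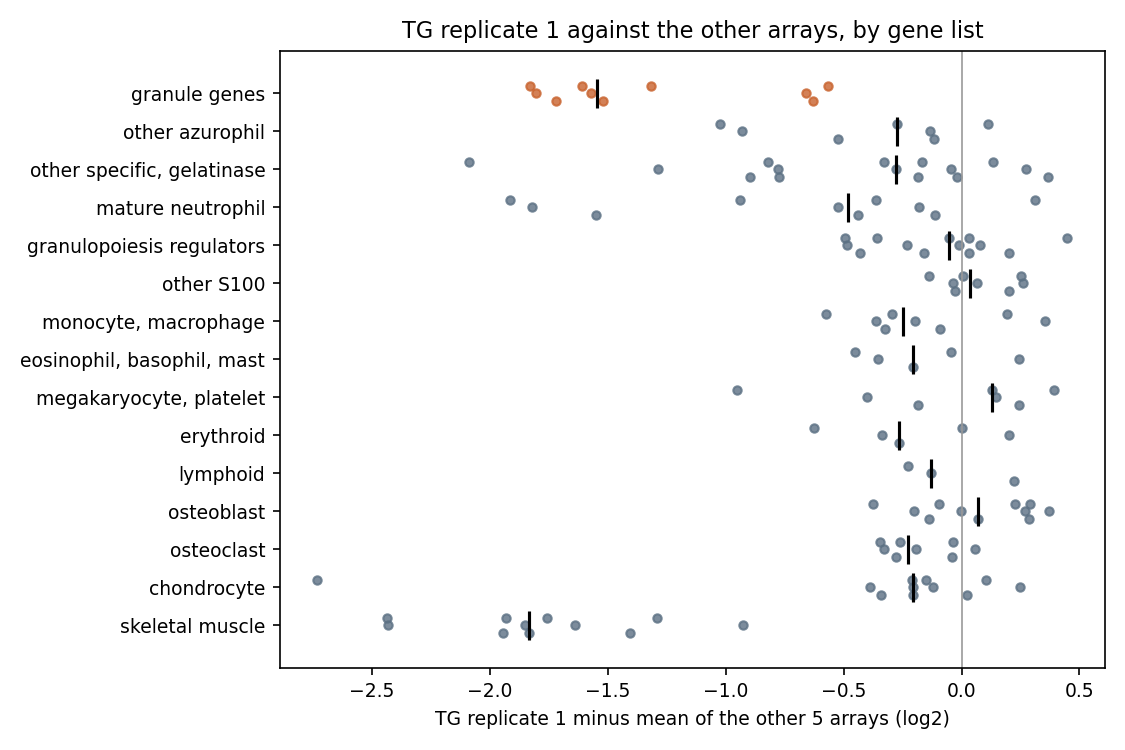
Log2 value on TG replicate 1 minus the mean of the other 5 arrays (horizontal axis) for each tested gene (points) of the gene lists (vertical axis), with black bars at list medians. The granule genes (median -1.55) and skeletal muscle markers (median -1.83) lie to the left, and osteoblast markers (median 0.07) and other S100 genes (median 0.04) near 0.

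Markers of other cell types show what else differed on TG replicate 1. Skeletal muscle markers were lowest there for 11 of 11 genes tested, with a median of -1.83 against the other arrays; Pvalb, a calcium buffer of fast fibres, read 145.7 there and 224.0 to 511.1 elsewhere. Their summed intensity was 62258 to 160566 in WT and 36352 to 114646 on the TG arrays, and that of the granule genes 6911 to 9758 and 3164 to 8475. Muscle markers and granule genes ordered the other arrays differently: the muscle level was highest on WT replicate 2 (1.08) and at -0.40 on WT replicate 1, where the granule level was highest. The TG minus WT median of the muscle list was -0.36, with 10 of 11 lower, among them Pvalb at -0.81 ± 0.66, Ckm at -0.45 ± 0.65 and Tnnt3 at -0.39 ± 0.63 (SE), and Myh8 had -0.37. This direction turned on leaving out 1 array: the median was 0.27 with 1 of 11 lower without TG replicate 1, and 0.17 with 3 of 11 lower without WT replicate 2. The part of muscle content in the granule gene values was not tested.

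Osteoblast markers did not share the gap. All 11 osteoblast markers with a probe passed the filter, so the labelled tissue's own markers were present; 6 were lower and 5 higher in TG, with a median of -0.03 and a summed intensity of 127319 to 143651 in WT and 108477 to 131915 in TG. TG replicate 1 was the lowest array for 0 of these 11, against 15.6% of all genes tested. The osteocalcin genes Bglap and Bglap2 had -0.78 ± 0.17 and -0.72 ± 0.21, Dmp1 had -0.32 ± 0.24 (SE), and Col1a1, near the top of the scale, 0.03. Of 8 osteoclast markers tested 6 were lower and TG replicate 1 was lowest for 3, with a median of -0.07, including Ocstamp at -0.32 ± 0.12 and Acp5 and Ctsk at -0.09 each. Chondrocyte markers were higher in TG for 10 of 11, with a median of 0.33. Col10a1 had 2.61 ± 1.51, Comp 0.51 ± 0.49, Matn1 0.36 ± 0.28 and Col2a1 0.27. Col10a1 was detected on only 3 arrays and read 128.6, 312.4 and 127.8 in WT and 127.5, 2509.6 and 606 in TG. Its difference thus came from TG replicates 2 and 3.

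Markers of other blood lineages of the marrow had their lowest list level on other arrays than TG replicate 1. It was on WT replicate 1 for the monocyte (-0.15) and megakaryocyte (-0.17) lists. For the erythroid (-0.39) and lymphoid (-0.32) lists it was on TG replicate 2. On TG replicate 1 these lists had -0.13, -0.07, -0.17 and -0.04. Of 8 monocyte and macrophage markers tested 4 were lower and 4 higher, with a median of -0.02; Cx3cr1 had 0.40 ± 0.21, Adgre1 -0.34 ± 0.16, C1qa -0.15 ± 0.18 and Csf1r -0.05 (SE). Of 7 megakaryocyte and platelet markers 2 were lower, with a median of 0.08; Gp1bb had 0.39 ± 0.28, Vwf, also an endothelial gene, -0.23 ± 0.29, Ppbp 0.18 ± 0.21 and Pf4 0.08. Of 5 erythroid markers 4 were lower, with a median of -0.53. Slc4a1 had -1.38 ± 0.72, Hbb-b2 -0.59 ± 0.43, Alas2 -0.53 ± 0.59 and Hba-a1 0.03. Slc4a1 read 807.4, 290.8 and 158.5 in WT and 186.2, 167.1 and 185.9 in TG. WT replicate 1 was thus its high array, and WT replicate 3 lay below each TG array. The erythroid level was highest on WT replicate 2 (0.83), without which the median was -0.0095, and -0.17 on TG replicate 1. Of 9 lymphoid markers with a probe only 3 were bright enough to test, and all 3 were lower. Igll1 had -0.45 ± 0.29, Cd79b -0.32 ± 0.22 and Vpreb1 -0.28 ± 0.18. These probes read 130.3 to 178.4, near the negative controls, and their median was -0.32, against -0.065 in the authors' values. TG replicate 1 was the lowest array for 1 of the 8 monocyte and macrophage markers, 1 of the 7 megakaryocyte markers, 0 of the 5 erythroid markers and 0 of the 3 lymphoid markers. Over all genes tested the share was 15.6%, so counts among so few markers lie near it. The markers lowest there were C1qa, at -0.57 against the mean of the other 5 arrays, and Vwf, at -0.95.

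Of the 3 sex-linked transcripts tested, Xist and Kdm5d set TG replicate 1 apart from the other TG arrays, and Uty did not. Xist, the RNA of the inactive X chromosome in females, had log2 values of 4.69 on TG replicate 1, 9.17 and 9.34 on TG replicates 2 and 3, and 4.49 to 5.12 on the WT arrays. Kdm5d had 7.17 on TG replicate 1, 4.69 and 4.43 on the other TG arrays, and 6.99 to 7.36 in WT. Uty, a Y-linked gene whose probe was dim, read a log2 value of 5.36 on TG replicate 1, 5.14 on both other TG arrays, and 5.73 to 6.07 in WT, a difference of -0.67 ± 0.14 (SE). For Xist and Kdm5d, TG replicate 1 lay within the range of the WT arrays, and for Uty it lay below each WT array and nearer the other TG arrays. When Y-linked signal entered the fit as a covariate, the median granule difference was -1.71 in place of -0.54. Y-linked signal (log2) was 6.37 to 6.72 in WT. It was 6.27, 4.92 and 4.78 on TG replicates 1 to 3. Within TG the covariate therefore separated replicate 1, the lowest granule array, from the others. The value of -1.71 thus leans on that array and is not a sex-adjusted effect of the transgene.

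The genes whose profile over the 6 arrays was most like the mean granule level were found among 1702 genes with an SD of at least 0.3 over the arrays. Likeness was Pearson's r over 6 arrays from the same hybridisations and is given as a description. Stfa1 came first at 0.98, followed by Klra17 and Slc2a6 at 0.96, Tnfrsf10b and Lyz1 at 0.95, Cstdc4 and Ifitm6 at 0.94, Cstdc5 and Chil3 at 0.93 and Mtf2 at 0.92. Stfa1, Lyz1 and Chil3, a chitinase-like gene, stood on the neutrophil lists above, and the Stfa and Cstdc genes encode stefins and stefin-like proteins of similar sequence, so their probes may share signal. Cstdc4 had log2 values of 9.80, 9.47 and 9.29 in WT and 7.80, 9.37 and 9.61 in TG. Mtf2, encoding a Polycomb-associated protein, had 9.64, 9.34 and 9.61 in WT and 8.27, 9.69 and 9.74 in TG. Both lay low on TG replicate 1, with the other 5 arrays together.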

How the data were processed

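For each of 45281 probes the deposited table gives a linear intensity (no background removed, per the file headers) and a detection p-value. The authors also deposited normalised log2 values; the submitters' processing notes name lumi, with its settings not given in the sources used here. The table ends in 974 control rows, and the last 936 served as negative controls: recomputing detection from them came within 0.0139 of every deposited value. Background was corrected against these controls (limma 3.58.1, R 4.3.3, function nec), 16 was added, and log2 values were quantile-normalised. A probe entered the test when its detection p was under 0.05 on at least 3 of 6 arrays of either group, which left 20632 probes and 11204 genes. Group differences came from limma's moderated two-sided test with Benjamini-Hochberg adjustment and a threshold of 0.05. The procedure was also run on simulated data with independent errors and no outlying array, a simpler setting than these arrays. A gene stands for its brightest tested probe. Platform annotation gave 34885 probes 1 symbol, 18 several and 10378 none. The number of arrays limits the precision. The members and gene lists were chosen with earlier results of these data known. The text names every member, per list up to 3 genes with the largest difference and the one with the highest mean, the 10 genes most like the members, and sex-linked genes. Csf3r, Gzmm and genes too dim to test were named after their values were seen. Replicate numbers were not used to pair the arrays in the main fit. Same-numbered WT and TG arrays deviated from their group means with correlations of 0.26, 0.15 and -0.17. Differently numbered arrays had -0.37 to 0.29, and so few arrays cannot exclude pairing.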

Additional observations from a re-analysis of the deposited data

How the results depend on the processing

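The count of called probes was 0 in each setting other than leaving out TG replicate 1, and 0 to 2 on leaving out 1 array. The median granule difference was -0.89 to -0.15 on leaving out 1 array, -0.30 in the authors' values, -0.36 without background correction and -0.50 at an offset of 50. With the replicate block it was -0.54, 0 probes were called, and 789 had an unadjusted p under 0.05. A covariate of Y-linked signal gave medians of -1.71 for the granule genes, -0.47 for the other azurophil, -0.36 for the other specific and gelatinase, -0.49 for the mature neutrophil and -0.22 for the regulator list, -0.31 for monocytes, -0.40 for mast cell and basophil genes, -0.26 for osteoclasts and -2.19 for muscle. It gave -0.94, -1.59 and -1.97 for the azurophil, specific and late stages, which spanned -0.80 to -0.31, -0.88 to -0.08 and -0.99 to -0.11 on leaving out 1 array. The stricter filter kept Mpo alone of the azurophil genes, at -0.999. The erythroid median was -0.89 to -0.0095 on leaving out 1 array. Medians changed sign on leaving out 1 array for the other S100 (-0.0061 to 0.12), granule relative (-0.0020 to 0.43), monocyte (-0.13 to 0.07), osteoblast (-0.15 to 0.06) and osteoclast (-0.17 to 0.01) lists. The same held for the other specific and gelatinase (-0.23 to 0.03), mature neutrophil (-0.22 to 0.14) and regulator (-0.16 to 0.0035) lists. It also held for the muscle (-0.71 to 0.27) and the eosinophil, basophil and mast cell (-0.08 to 0.62) lists. The sex-linked median was -0.19 without background correction, -0.14 in the authors' values and -0.39 at an offset of 50, against -0.67. TG replicate 1 had the lowest granule level in every scaling, background and filter setting tried, at -1.35 to -0.61. As given above, the Y-linked covariate separated TG replicate 1 from the other TG arrays. Why the other settings moved the values was not tested. Elane, Prtn3 and the dim Mpo probes lie near background, which limits their differences.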

Other observations

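Mast cell genes, which sit beside granule genes in the same tissue but in another lineage, had another array order. The 5 tested genes of the list of eosinophil, basophil and mast cell markers were Cpa3, Tpsb2, Cma1, Mcpt4 and Fcer1a, all of mast cells or basophils. All 5 had a higher mean in TG, with a median difference of 0.19, and 0 passed limma's test. The direction turned without WT replicate 1, where 3 of the 5 were lower with a median of -0.08, and the median was 0.62 without WT replicate 2. Cpa3, encoding the mast cell carboxypeptidase, read 222.6, 642.4 and 294.4 in WT and 298.6, 329.2 and 451.7 in TG, a difference of 0.09 ± 0.45 (SE). Tpsb2, encoding a tryptase, read 178.6, 488.3 and 211.6 in WT and 247.1, 262.8 and 368.7 in TG, a difference of 0.32 ± 0.50 (SE). WT replicate 2 was the high array for both, and TG replicate 1 the lowest array for 0 of the 5, against 15.6% of all genes tested. The chymase genes Cma1 and Mcpt4 had their highest intensity on WT replicate 2 as well.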
